A study of Mus musculus with 30 samples.

Results

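Hba-a1 and Hba-a2 (adult alpha globin), Hbb-bs and Hbb-bt (adult beta globin), Alas2 (haem synthesis), Klf1 and Gata1 (transcription factors) and Slc4a1 (the red cell anion exchanger) are 8 of the 56686 genes in a table of TPM (transcripts per 1000000, corrected for gene length) from mouse lumbar dorsal root ganglia, and were chosen by name. All 8 were found in the table and all 8 passed the filter on low values, which asked for 3 or more libraries with 1 TPM or more, as did 25434 genes in all. Ganglia L3 to L5 of both sides came from male wild-type C57BL/6J mice perfused with RNAlater, and the 30 libraries form 10 groups of 3. On day 2 the groups are CVAD, cyclophosphamide, dexamethasone and saline, and on day 8 they are CVAD, cyclophosphamide, vincristine, doxorubicin, dexamethasone and saline. CVAD is the combination of the 4 single drugs, and every mouse was perfused in the same way, saline controls included. The labels give no dose and do not say whether a library is 1 animal or a pool, so p-values measure only the spread between these samples.

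Red blood cells arise in the bone marrow from precursors that switch on a shared programme. GATA1 and KLF1 turn on the globin genes, ALAS2 carries out the first step of haem synthesis in the red cell lineage, and SLC4A1 (band 3) joins the membrane late in maturation. Young red cells that have lost their nucleus, the reticulocytes, still hold globin mRNA for a short time in the blood, whereas Gata1 and Klf1 mRNA belongs mainly to the nucleated precursors. A ganglion is not a site of red cell formation in the adult mouse. Perfusion is meant to wash blood out of the vessels, and the depletion kit named in the labels is designed to remove globin mRNA along with ribosomal RNA. What part either had in the levels given here was not tested. In bulk RNA, fewer cells of a type and less RNA per cell cannot be told apart.

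The tissue label held in the data: the 10 ganglion identity genes summed to 1446 to 2020 TPM in the 28 libraries other than CVAD day 2 replicate 1 and saline day 8 replicate 3, and to 1551 and 1726 TPM in those 2. Those 2 libraries stand apart for the genes described here, and results that rest on them are given with and without them. Replicate numbers follow the order of deposit and name a library only. Read depth is unknown, and an exact 0 may be a failed estimate: the 37 genes of the mitochondrial genome, which nearly every cell uses, were listed at 0 in all 30 libraries. Groups with a library at 0 are therefore given library by library, and a mean ± SD (n = 3) is given for the others.

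In the coordinates of the deposited table, for which the sources name 2 builds without their roles, the genes lie at chr11:32233511-32234465 (Hba-a1), chr11:32246489-32247298 (Hba-a2), chr7:103475741-103477303 (Hbb-bs), chr7:103461731-103463203 (Hbb-bt), chrX:149330371-149353634 (Alas2), chr8:85628557-85631924 (Klf1), chrX:7825499-7844310 (Gata1) and chr11:102239650-102257029 (Slc4a1). Each pair lies in its globin cluster, with the theta globin gene Hbq1b between Hba-a1 and Hba-a2, and the values below are for whole genes.

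The stretches of 120 bases before the RefSeq start (GRCm38.p6, 5′ to 3′ on the gene's own strand) are shown for the 4 globin genes and Alas2, because these genes of different chromosomes varied together in the 2 libraries that stand apart. They lie at chr11:32283552-32283671 (Hba-a1, plus strand), chr11:32296372-32296491 (Hba-a2, plus), chr7:103827929-103828048 (Hbb-bs, minus), chr7:103813924-103814043 (Hbb-bt, minus) and chrX:150547297-150547416 (Alas2, plus). Capitals mark 4 motifs, each searched on both strands and marked in the letters of the strand shown.
Hba-a1: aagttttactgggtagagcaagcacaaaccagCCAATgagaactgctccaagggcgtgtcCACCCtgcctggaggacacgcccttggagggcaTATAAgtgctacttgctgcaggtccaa
Hba-a2: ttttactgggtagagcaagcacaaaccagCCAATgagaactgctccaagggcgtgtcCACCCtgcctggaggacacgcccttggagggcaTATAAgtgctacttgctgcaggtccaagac
Hbb-bs: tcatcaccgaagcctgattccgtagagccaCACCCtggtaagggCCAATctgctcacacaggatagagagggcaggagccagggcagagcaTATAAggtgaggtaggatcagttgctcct
Hbb-bt: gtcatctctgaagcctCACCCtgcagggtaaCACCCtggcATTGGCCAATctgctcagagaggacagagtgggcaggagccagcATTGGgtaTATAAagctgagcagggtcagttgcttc
Alas2: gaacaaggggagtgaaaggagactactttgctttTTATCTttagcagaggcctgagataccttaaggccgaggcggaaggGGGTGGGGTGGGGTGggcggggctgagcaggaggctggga
No marked matches share letters. RefSeq held such a stretch for 7 of the 8 genes (Slc4a1 was not matched). CACCC, the letters that KLF1 is known to bind, was found in 7 of these 7 and in 31.7% of all 32851 promoters. The stretch of Gata1 lies inside the annotated gene, which has a transcript that starts further upstream, and without it the count was 6 of 6. Other stretches may also lie inside a gene as the deposited table annotates it. The CCAAT box was found in 5 of 7 and in 21.3% of all. The TATA box letters TATAA were found in 4 of 7, the 4 globin genes, and in 11.8% of all. The GATA motif was searched as AGATAA and as TGATAA, and it was found in 2 of 7, Alas2 and Klf1, and in 7.63% of all. A match describes letters in this window and not a bound site. The alpha pair is nearly the same sequence: the longest run shared by the 2 stretches is 117 bases for Hba-a1 and Hba-a2, against 14 bases for Hbb-bs and Hbb-bt. This contrast between the pairs was not as clear in the transcripts, where the longest shared run is 415 bases for the alpha pair and 430 for the beta pair. Of the 50-base windows, 67.5% of those of Hba-a1 occur in Hba-a2 and 86.9% the other way, against 65.8% of those of Hbb-bs in Hbb-bt and 58.3% the other way. The split of reads within each pair is therefore uncertain, and the sums of the pairs are given beside the single genes.

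Over all 30 libraries the order of mean levels was Alas2 (24.8 TPM), Slc4a1 (20.1), Hba-a2 (15.3), Hba-a1 (13.8), Hbb-bs (13.4), Hbb-bt (5.48), Klf1 (2.16) and Gata1 (1.23). The 4 adult globin genes together averaged 47.9 TPM, close to the 48.3 TPM of the other 4 genes together. The globin sum was above that of the other 4 genes in 14 of the 30 libraries and, by mean, in 6 of the 10 groups.

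**Figure D1:**
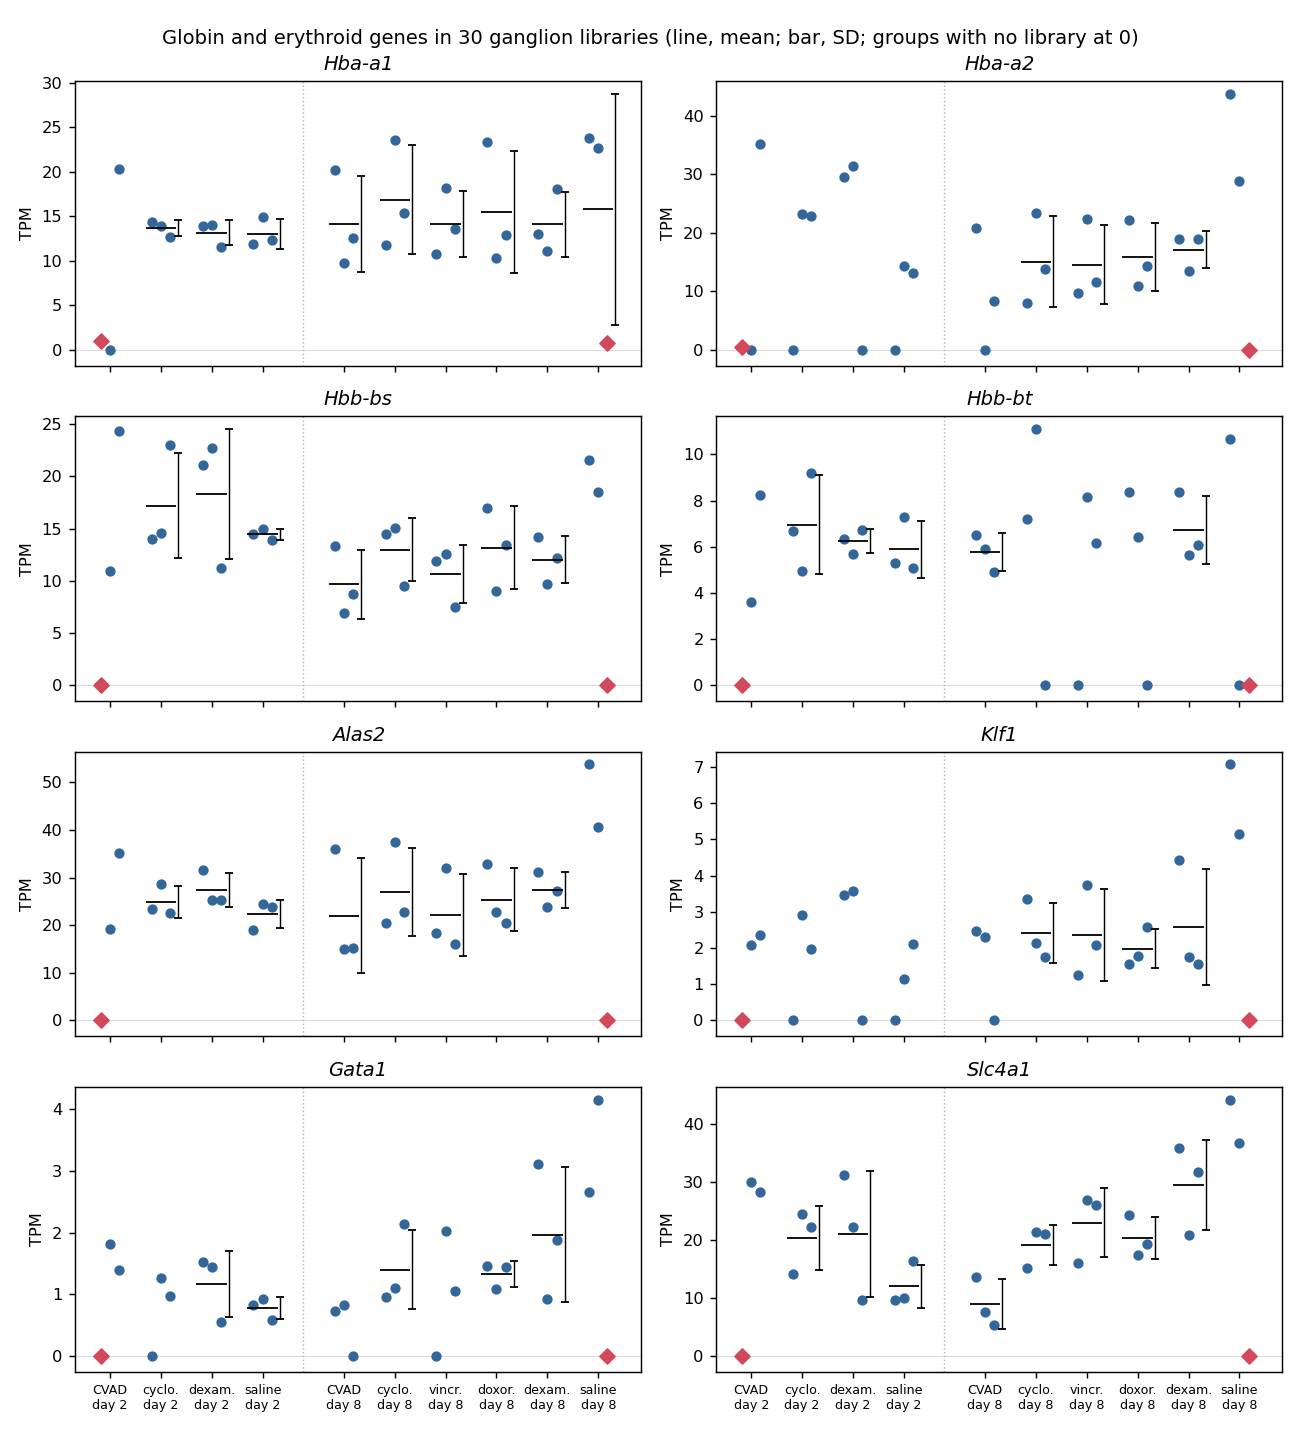
Level of each of the 8 genes in TPM (vertical axis) in each of the 30 libraries, by drug and day (horizontal axis). Points are libraries, red diamonds are CVAD day 2 replicate 1 and saline day 8 replicate 3, and horizontal lines and bars are the mean and SD of 3 for groups with no library at 0. Both diamonds lie at or below 0.987 TPM for every gene, while the other saline libraries of day 8 hold the highest Alas2, Slc4a1, Klf1 and Hba-a2 values.

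Reads were assigned to both alpha globin genes, with the uncertainty of the split given above. On day 2, Hba-a1 had 0.987, 0 and 20.3 TPM in the CVAD libraries, 14.4, 13.97 and 12.7 TPM in the cyclophosphamide libraries, 13.9, 14.02 and 11.6 TPM in the dexamethasone libraries, and 11.9, 14.97 and 12.3 TPM in the saline libraries. The CVAD libraries were the most spread of the 4 groups, with 2 below and 1 above every other library of that day. On day 8, Hba-a1 averaged 14.1 ± 5.41 TPM in CVAD, 16.9 ± 6.07 in cyclophosphamide, 14.2 ± 3.71 in vincristine, 15.5 ± 6.87 in doxorubicin and 14.1 ± 3.61 in dexamethasone libraries, against 23.9, 22.7 and 0.818 TPM in the saline libraries. The 5 drug groups differed from each other by less than their SDs. Hba-a2 was listed at 0 in 6 libraries: CVAD day 2 replicate 2, cyclophosphamide day 2 replicate 1, dexamethasone day 2 replicate 3, saline day 2 replicate 1, CVAD day 8 replicate 2 and saline day 8 replicate 3. Elsewhere it ran between 0.439 TPM in CVAD day 2 replicate 1 and 43.8 TPM in saline day 8 replicate 1. In CVAD day 2 replicate 2 both alpha genes were at 0 although the beta genes summed to 14.5 TPM and Alas2 was at 19.2 TPM. This rests on exact 0 values in 1 library, which may be failed estimates.

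Beta globin, the partner chain, was steadier for Hbb-bs than for Hbb-bt. On day 2, Hbb-bs had 0, 10.9 and 24.4 TPM in CVAD libraries, averaged 17.2 ± 5.03 in cyclophosphamide and 18.3 ± 6.21 in dexamethasone libraries, and averaged 14.4 ± 0.524 TPM in saline libraries. On day 8 it averaged 9.66 ± 3.32 TPM in CVAD, 12.99 ± 3.05 in cyclophosphamide, 10.7 ± 2.78 in vincristine, 13.1 ± 3.98 in doxorubicin and 12.04 ± 2.26 in dexamethasone libraries, against 21.6, 18.5 and 0 TPM in saline libraries. All 15 drug libraries of day 8 lay below the 2 saline libraries that were not at 0. The same was true of Hba-a2, Alas2, Klf1 and Slc4a1, thus of 5 of the 8 genes, and of 0.889% of all tested genes, a count made with saline replicate 3 set aside after its values were seen. Hbb-bt was listed at 0 in 6 libraries, CVAD day 2 replicate 1 and 5 of day 8 (cyclophosphamide replicate 3, vincristine replicate 1, doxorubicin replicate 3, and saline replicates 2 and 3), and reached 11.1 TPM at most. The embryonic globins Hba-x, Hbb-y, Hbb-bh1 and Hbb-bh2 were listed at 0 in all 30 libraries, and the theta globin genes Hbq1a and Hbq1b averaged 0.370 and 1.58 TPM.

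Alas2, the red cell form of the enzyme that starts haem synthesis, had 0, 19.2 and 35.2 TPM in CVAD libraries of day 2, and averaged 24.9 ± 3.31 TPM in cyclophosphamide, 27.4 ± 3.61 in dexamethasone and 22.4 ± 2.96 in saline libraries. On day 8 it averaged 22.03 ± 12.1 TPM in CVAD, 26.97 ± 9.23 in cyclophosphamide, 22.1 ± 8.70 in vincristine, 25.4 ± 6.61 in doxorubicin and 27.4 ± 3.75 in dexamethasone libraries, against 53.8, 40.7 and 0 TPM in saline libraries. Among the 8 groups with no library at 0, ordered from dexamethasone day 8 down to CVAD day 8, no neighbours differed by more than their SDs. The highest and the lowest Alas2 values of the whole series were thus both found among saline libraries of day 8.

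Klf1 and Gata1, the transcription factors of the precursor stage, were low throughout. On day 8, Klf1 had 2.47, 2.31 and 0 TPM in CVAD libraries and averaged 2.42 ± 0.832 in cyclophosphamide, 2.36 ± 1.27 in vincristine, 1.98 ± 0.536 in doxorubicin and 2.58 ± 1.61 in dexamethasone libraries, against 7.08, 5.15 and 0 TPM in saline libraries. Gata1 had 0.728, 0.829 and 0 TPM in CVAD libraries of day 8, averaged 1.40 ± 0.646 in cyclophosphamide, 1.33 ± 0.210 in doxorubicin and 1.97 ± 1.10 in dexamethasone libraries, had 0, 2.02 and 1.06 TPM in vincristine libraries, and had 2.66, 4.16 and 0 TPM in saline libraries. For both genes a saline library of day 8 again held the highest value. On day 2, Klf1 was listed at 0 in 1 library of each of the 4 groups and was at most 3.59 TPM, and Gata1 was at most 1.81 TPM. Gata1 is also a factor of megakaryocytes, eosinophils and mast cells, so its level is not specific to red cell precursors.

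Slc4a1, the band 3 anion exchanger of the red cell membrane, spanned 5.37 to 44.3 TPM in the 28 libraries in which it was not at 0. On day 2 it had 0, 30.1 and 28.3 TPM in CVAD libraries, 14.1, 24.6 and 22.3 TPM in cyclophosphamide libraries, 31.3, 22.3 and 9.62 TPM in dexamethasone libraries, and 9.67, 10.04 and 16.3 TPM in saline libraries. On day 8 it had 13.7, 7.54 and 5.37 TPM in CVAD libraries, against 44.3, 36.8 and 0 TPM in saline libraries. In the single drug groups of day 8 it averaged 19.1 ± 3.50 TPM in cyclophosphamide, 23.004 ± 6.01 in vincristine, 20.3 ± 3.58 in doxorubicin and 29.5 ± 7.82 in dexamethasone libraries. The CVAD libraries of day 8 lay below each of these 12 single drug libraries and between the saline libraries of that day. Among the 8 groups with no library at 0, the order ran from dexamethasone day 8 down to saline day 2 (12.005 ± 3.73 TPM) and CVAD day 8 (8.86 ± 4.31 TPM), and most neighbours differed by less than their SDs. The exceptions were cyclophosphamide day 8 and saline day 2, and dexamethasone day 8 and vincristine day 8, and in both pairs the ranges overlapped.

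In CVAD day 2 replicate 1 and saline day 8 replicate 3 nearly the whole programme was listed at or near 0. Alas2, Slc4a1, Hbb-bs, Hbb-bt, Klf1 and Gata1 were listed at 0 in both, Hba-a1 was at 0.987 and 0.818 TPM, and Hba-a2 was at 0.439 and 0 TPM. The 8 genes summed to 1.43 and 0.818 TPM there, against 48.2 to 208 TPM (median 87.7) in the other 28 libraries. Of the 17876 genes that were above 1 TPM in each of the other 28, only 4 were below 0.1 times the lowest of those 28 in both of these libraries, Alas2, Slc4a1 and Hbb-bs among them, and the same 4 were the only ones below 50% of it. Their median correlation with other libraries was r = 0.964 and 0.966, within 0.962 to 0.969 for all 30. In CVAD day 2 replicate 1 more genes were above 0 (27972) than in any other library, and 27585 were in saline day 8 replicate 3, against 25342 to 27676 in the other 28.

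Other red cell genes were at or near 0 with them. Among the 13 genes of the membrane and skeleton list, Rhag, Rhd and Icam4, which carry blood group antigens or partner them, were at 0 in both libraries, Kel was at 0 and 0.131 TPM, and Epb42 was at 0.304 and 0 TPM. Among late maturation genes Hemgn, Tspo2, Trim58 and Car1 were at 0 in both. Several of these low genes were at 0 elsewhere too: over all 30 libraries Rhag, Rhd and Car1 were at 0 in 7 each, Icam4 in 19, Trim58 in 6 and Tspo2 in 4, whereas Hemgn was at 0 in these 2 alone. Genes of the same lists that many tissues use were within or near the range of the other 28. Ank1 was at 133 and 145 TPM (131 to 182 in the 28), Tfrc, the transferrin receptor, at 66.1 and 73.2 TPM (63.9 to 95.4), and Fech, the last enzyme of haem synthesis, at 48.1 and 57.1 TPM (45.2 to 74.9). Only the mitochondrial iron importer Slc25a37 among the 9 detected haem synthesis and import genes was below the 28 in both, at 22.9 and 21.5 TPM against 23.1 to 43.3 TPM, a choice made after its values were seen. Uros alone was below the 28 in CVAD day 2 replicate 1 only.

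Markers of other tissues that surround the ganglion did not follow. The 10 granule genes of neutrophil precursors, which also live in marrow, summed to 198 TPM in CVAD day 2 replicate 1, above 13 of the other 28 libraries, and to 446 TPM in saline day 8 replicate 3, above all 28 (95.0 to 379 TPM). Mpo, the myeloperoxidase of such precursors, was at 11.8 and 39.2 TPM, and no gene of that list was at 0 in either. The 10 bone genes summed to 118 and 109 TPM (36.3 to 219 TPM in the 28), and the 8 skeletal muscle genes to 306 and 340 TPM (81.3 to 1042 TPM). The muscle sums include Pvalb, at 64.5 and 81.7 TPM (68.0 to 125 TPM), so their low end is mostly that gene. Ckm of the same list was at 24.8 and 25.5 TPM (0 to 107 TPM). The 9 megakaryocyte and platelet genes summed to 43.8 and 72.1 TPM (41.0 to 98.1 TPM). Loss of the red cell genes was thus not accompanied by loss of these other lists. How the red cell genes came to be listed at 0 was not tested.

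**Figure D2:**
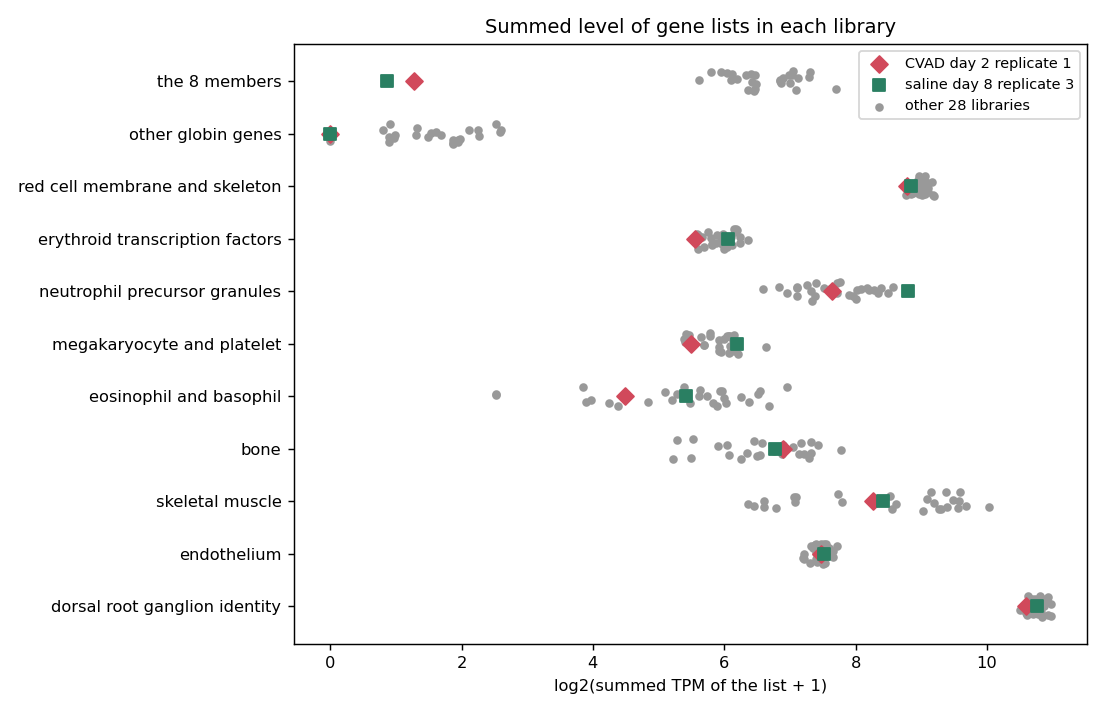
Summed level of each gene list on a log2(TPM + 1) axis, 1 point per library, with CVAD day 2 replicate 1 as a red diamond, saline day 8 replicate 3 as a green square and the other 28 libraries in grey. The 8 genes sum to 1.43 and 0.818 TPM in the 2 marked libraries, far left of the grey points, while the neutrophil, bone, muscle and endothelium sums stay among the grey points or, for neutrophil genes in saline day 8 replicate 3, to their right.

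Drug groups were compared with saline of the same day in 1 linear model over all 30 libraries, on log2(TPM + 1), a scale that understates changes of low genes. On day 8 limma called 0 of the 8 genes at an adjusted p under 0.05 (Benjamini-Hochberg over all tested genes) in any of the 5 drugs. The share of all tested genes called was 0% for CVAD, vincristine, doxorubicin and dexamethasone and 0.00786% for cyclophosphamide. The mean of the 5 drug groups against saline likewise gave 0 of 8 genes and 0% of all genes, and none of the 8 was under an unadjusted p of 0.05 in these 6 comparisons. For CVAD the log2 fold changes were 0.69 ± 1.03 (SE) for Alas2, -0.37 ± 1.04 for Slc4a1, 0.44 ± 0.86 for Hbb-bs and -0.86 ± 0.50 for Gata1, with 4 of the 8 higher and 4 lower. The mean TPM was lower in CVAD for 7 of the 8, so that for Alas2 (22.03 against 31.5 TPM in saline), Hbb-bs (9.66 against 13.4 TPM) and Hba-a1 (14.1 against 15.8 TPM) the log2 estimate ran opposite to the means. In the other drugs 6 or 7 of the 8 means were likewise lower than in saline, and 1 or 2 of the 8 log2 fold changes were. The sign for Slc4a1 turned with a pseudocount of 0.1 (0.60) and with library quality weights (0.43). The SEs of about 1 log2 unit for Alas2 and Slc4a1 leave changes of that size undetectable here. The 5 comparisons share the 3 saline libraries.

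Without the 2 libraries that stand apart, an alternative chosen after their values were seen, the log2 fold changes of day 8 took the direction of the means. Then 7 of the 8 genes were lower in each of the 5 drugs than in saline, all but Hbb-bt. The median log2 fold changes of the 8 were -1.37 for CVAD, -0.86 for cyclophosphamide, -0.995 for vincristine, -0.90 for doxorubicin and -0.71 for dexamethasone. Over all genes the medians lay between -0.03 (cyclophosphamide) and 0.03 (CVAD). For CVAD, 5 of the 8 genes were under an unadjusted p of 0.05, against 6.03% of all genes. Slc4a1 was called, lower in CVAD than in saline by a log2 fold change of -2.16 ± 0.38 (limma, adjusted p = 0.0497), where 0.0198% of all genes were called. It was the sole one of the 8 called, and the values behind it are 13.7, 7.54 and 5.37 TPM in CVAD libraries and 44.3 and 36.8 TPM in the remaining saline libraries. With saline day 8 replicate 3 alone left out it was not called (adjusted p = 0.640). Alas2 (-1.17 ± 0.33, adjusted p = 0.300), Gata1 (-1.57 ± 0.42, adjusted p = 0.255) and Hbb-bs (-1.02 ± 0.33, adjusted p = 0.475) were not called by limma. The single drugs had 0 of the 8 genes called, where 0.0119% to 0.0238% of all genes were called. A fold change built on 2 saline libraries, with the other left out for the very genes tested, is given as a description of how far saline day 8 replicate 3 sets the result.

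**Figure D3:**
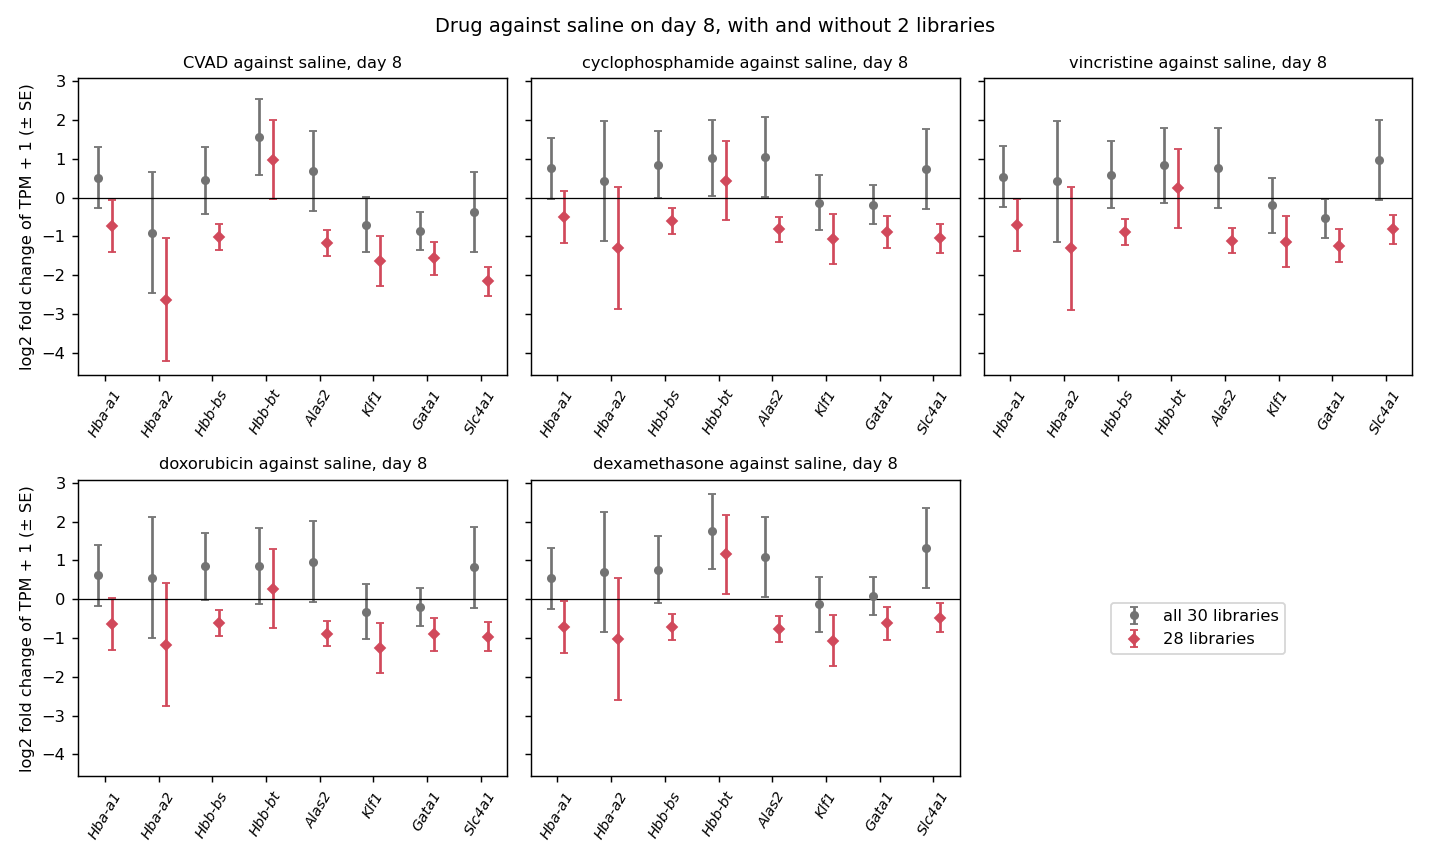
Log2 fold change of TPM + 1 with its SE (vertical axis) for the 8 genes (horizontal axis) in each drug against saline on day 8, over all 30 libraries (grey circles) and over 28 libraries without CVAD day 2 replicate 1 and saline day 8 replicate 3 (red diamonds). In all 5 panels the red points of 7 genes lie below 0, down to -2.63 for Hba-a2 in CVAD, while most grey points lie above 0 outside CVAD.

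On day 8 the neutrophil precursor list was lower in CVAD than in saline. Its sum was 137, 123 and 95.0 TPM in CVAD libraries, against 288, 359 and 446 TPM in saline libraries, with no overlap. All 10 of its genes were lower in CVAD (median log2 fold change -1.80, 0 called), as were 44.7% of all genes. Without the 2 libraries the median of the list was -1.57, again with 10 of 10 genes lower and 0 called, against 42.7% of all genes lower. Over all 30 libraries 4 of the 8 genes were higher in CVAD on the log2 scale and 4 lower. The mean TPM was lower in CVAD for 7 of the 8. Without the 2 libraries, left out after their values were seen, 7 of the 8 were lower (median log2 fold change -1.37). In saline day 8 replicate 3 the 8 genes summed to 0.818 TPM, while the list was at 446 TPM, its highest. Its part in the red cell values was not tested.

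On day 2 limma also called 0 of the 8 genes. The share of all genes called was 0.0432% for CVAD, 0.0118% for cyclophosphamide, 0.00393% for dexamethasone and 0.0511% for the mean of these 3 groups against saline. Hba-a1 was under an unadjusted p of 0.05 in CVAD, with a log2 fold change of -2.004 ± 0.79 (limma, adjusted p = 0.476), and it was lower in 2 of the 3 CVAD libraries and higher in the other than in every saline library. The remaining genes had 0 such values in these 4 comparisons. Alas2 did not overlap between dexamethasone and saline on day 2, with 31.5, 25.3 and 25.2 TPM in dexamethasone libraries and 18.97, 24.3 and 23.8 TPM in saline libraries, as did 8.91% of all genes, and its log2 fold change was 0.28 ± 1.03. The log2 fold change of Slc4a1 in CVAD changed sign with the libraries used. It was -0.39 ± 1.04 with all 30, although the mean was higher in CVAD (19.5 TPM) than in saline (12.005 TPM), and 1.25 ± 0.38 without the 2 that stand apart (adjusted p = 0.464), when the CVAD libraries at 30.1 and 28.3 TPM were set against 9.67, 10.04 and 16.3 TPM in saline libraries.

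The days were compared next. In saline, day 8 against day 2 gave 0 of 8 genes called, as against 0.00393% of all genes. The day 8 saline libraries other than replicate 3 were above all day 2 saline libraries for 7 of the 8 genes, all but Hbb-bt, as they were for 17% of all genes. Without the 2 libraries 4 of the 8 genes were under an unadjusted p of 0.05, against 5.27% of all genes over the 20 comparisons together. Of the 8, 0 were called, where 5 of 25236 genes were called, and Slc4a1 differed by 1.71 ± 0.38 (limma, adjusted p = 0.132). These values rest on 2 day 8 saline libraries, kept after replicate 3 was seen at or near 0 in these same genes. Hba-a1 (0.79 ± 0.67), Hba-a2 (2.60 ± 1.59) and Hbb-bs (0.45 ± 0.34) were not among those 4. The CVAD response, the CVAD to saline difference of day 8 minus that of day 2, gave 0 of 8 genes called, as against 0.0826% of all genes. Hba-a1 was the one gene under an unadjusted p of 0.05 there (2.51 ± 1.11, limma, adjusted p = 0.506). Without the 2 libraries, Slc4a1 was called in the CVAD response at -3.41 ± 0.53 (limma, adjusted p = 0.0223), where 0.0119% of all genes were called. With all 30 it was at 0.02 ± 1.47, although its mean in CVAD was below that of saline on day 8 and above it on day 2. Both libraries were left out after Slc4a1 itself was seen at 0 in them, so the call is a description and not a test. The matching responses to cyclophosphamide and dexamethasone had 0 of 8 genes called and 0% of all genes, and 0 of 8 at an unadjusted p of 0.05. In the CVAD response 4 neutrophil genes, Elane, Ngp, Camp and Cd177, and the eosinophil peroxidase Epx were called lower, with log2 fold changes between -2.25 and -3.95, and 0 of them were called without the 2 libraries.

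CVAD was then set against each single drug, comparisons that do not use either saline group. On day 8, 0 of 8 genes and 0% of all genes were called in each of the 4 comparisons, and 0 of 8 were under an unadjusted p of 0.05. On the log2 scale all 8 genes were lower in CVAD than in dexamethasone, and 7 of 8 were lower than in each of the other 3 drugs. Medians lay between -0.23 (vincristine) and -0.49 (dexamethasone). Slc4a1 was lower in every CVAD library than in every library of each drug. Gata1 was lower in every CVAD library than in every cyclophosphamide, doxorubicin and dexamethasone library. Over all genes, 10.8% did not overlap against cyclophosphamide, 7.75% against vincristine, 9.05% against doxorubicin and 10.2% against dexamethasone. Set against the 12 single drug libraries together, Slc4a1 was the only one of the 8 genes that did not overlap, at 5.37 to 13.7 TPM in CVAD against 15.1 to 35.9 TPM in the single drugs. Of all genes 0.609% did not overlap in this way, 0.149% with CVAD lower. Its log2 fold changes were -1.10 against cyclophosphamide, -1.34 against vincristine, -1.19 against doxorubicin and -1.68 against dexamethasone. Their SE is 1.04 with all 30 libraries and 0.34 without the 2 that stand apart, and the adjusted p (limma) is then 0.866 for cyclophosphamide, 1 for vincristine, 0.658 for doxorubicin and 0.174 for dexamethasone. The 2 libraries enter these comparisons through the shared variance alone. Again the neutrophil precursor sum was low in these CVAD libraries, at 95.0 to 137 TPM, against 137 to 335 TPM in the 12 single drug libraries, which meet at 137 TPM. On day 2, CVAD against cyclophosphamide and against dexamethasone gave 0 of 8 genes called, as against 0.00393% and 0% of all genes, and Hba-a1 was under an unadjusted p of 0.05 in both, through the same CVAD libraries.

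The rest of the pathway was read from 5 lists of 48 genes, of which 43 were tested. Limma called 0 of these in any of the 20 comparisons, with all libraries or without the 2 that stand apart. Of their 860 tests 6.86% were under an unadjusted p of 0.05 with all libraries, against 5.60% over all genes. Without the 2 the share was 21.2%, against 5.27% over all genes. The 2 were left out after red cell genes, some of these lists among them, were seen at 0 there. That share is therefore a description and not a test, and the 860 tests share genes and libraries. In CVAD against saline on day 8, 11 of 13 membrane and skeleton genes were lower (median -0.48), as were 7 of 7 transcription factors (median -0.60), 9 of 12 receptor and late maturation genes (median -0.09) and 6 of 9 haem synthesis and import genes (median -0.02), against 44.7% of all genes (median 0.02). Both tested theta globin genes were higher (median 0.61). The lists' most abundant genes were those that ganglion or vessel cells also express: Ank1, Aqp1 and Epb41 at means of 152, 136 and 101 TPM among membrane genes, Lmo2, Zfpm1 and Bcl11a at 23.9, 17.8 and 8.05 TPM among the factors, Car2, Tfrc and Tmcc2 at 78.5, 77.4 and 77.1 TPM among maturation genes, and Urod, Slc25a38 and Fech at 72.7, 60.9 and 57.8 TPM among haem genes. Genes of the lists that are more restricted to red cells, such as Kel (3.56 TPM) and Rhag (1.96), were lower than these.

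Across libraries the 8 genes varied together, in part through the 2 libraries that stand apart. Over the 28 pairs of the 8 genes the median Pearson r of log2(TPM + 1) was 0.59 (0.17 to 0.95) over 30 libraries and 0.46 (-0.087 to 0.76) over the other 28. Alas2 and Slc4a1 had r = 0.92 over 30 libraries and 0.63 over 28, and Klf1 and Gata1 had 0.80 and 0.74. The lowest value in both sets was that of Hbb-bt and Gata1. All points share the drug groups and the TPM scale, and these values are descriptions.

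**Figure D4:**
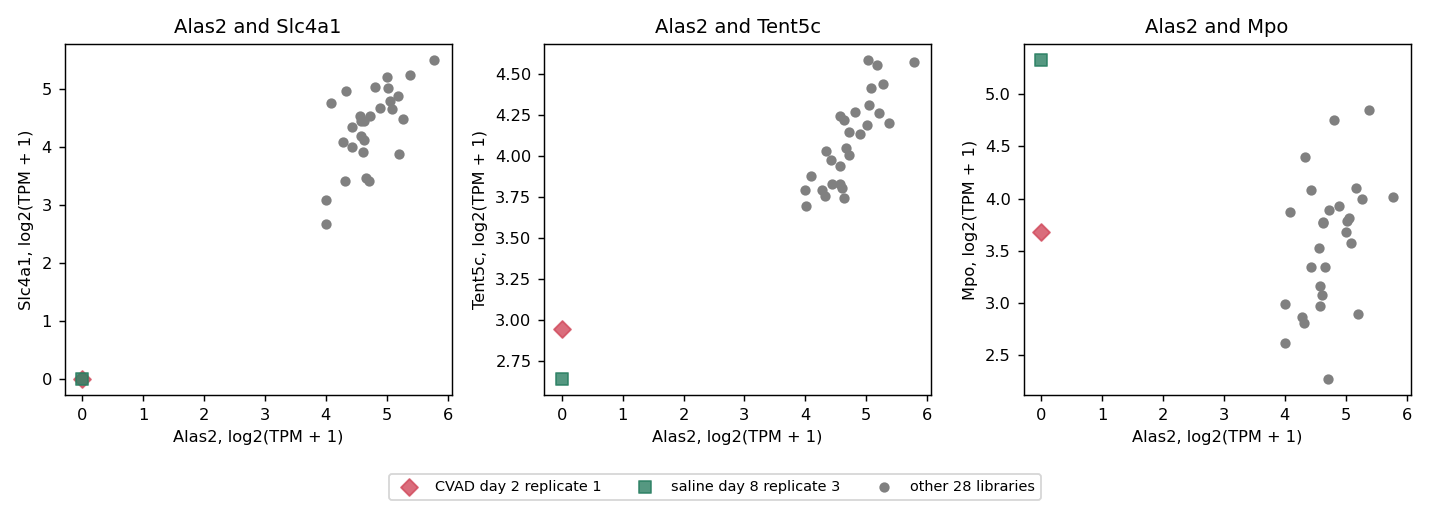
Levels of Slc4a1, Tent5c and Mpo (vertical axes) against Alas2 (horizontal axes) in 30 libraries, all on log2(TPM + 1), with CVAD day 2 replicate 1 as a red diamond, saline day 8 replicate 3 as a green square and the other 28 libraries in grey. Slc4a1 is at 0 with Alas2 in both marked libraries and Tent5c is at its lowest there, while Mpo is within the grey range in the first and above it in the second.

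Of the other tested genes, among those most like Alas2 over 30 libraries were Tent5c (r = 0.90, and 0.83 over 28), Trim10 (0.77 and 0.60), Kel (0.77 and 0.67) and Hemgn (0.74 and 0.46). Among those most like Hbb-bs were Tent5c (0.89 and 0.72), Trim10 (0.77 and 0.56), Hemgn (0.74 and 0.46) and Ctse (0.74 and 0.46). Tent5c, a poly(A) polymerase, was thus first for both genes with and without the 2 libraries. Of the other genes named here, Kel alone was among the 5 most like Alas2 over the 28 libraries. No other was among the 5 most like Hbb-bs, where the next were the processed pseudogene Gm10156 (0.67) and the long noncoding RNA Gm2109 (0.65). Over the 28 libraries Slc4a1 ran with the neutrophil genes Ngp (0.86) and Mpo (0.79), whereas over all 30 these values were 0.23 and 0.06. Alas2 and Mpo had r = 0.43 over 28 libraries and -0.20 over 30.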

How the data were processed

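Per the labels' protocols, 60 to 80 ng of total RNA were depleted of ribosomal RNA with a Ribo-Zero Plus kit and made into stranded libraries. STAR 2.7.10b, StringTie 2.2.1 and FastQC 0.12.1 are named in the submitters' processing notes, as are 2 builds with no role given (mm10, GRCm39). The authors deposited TPM per gene, scaled so that the columns summed to 999910 to 999941. Reads per library are not stated, so depth is unknown, no counting interval was computed and no count test was run.

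Groups (drug and day) were taken from the labels, and all 30 libraries were used. In limma 3.58.1 (R 4.3.3) 1 model with a mean per group and a trend on mean expression was fitted to log2(TPM + 1) of the 25434 genes for which 3 or more libraries reached 1 TPM, which leaves 20 residual degrees of freedom. P-values are 2-sided and were adjusted (Benjamini-Hochberg) across tested genes separately for 20 comparisons, with a threshold of 0.05. The pipeline was tested on simulated data. Alternatives were median-ratio scaling, a pseudocount of 0.1, protein-coding genes alone, no filter, library quality weights, a separate model per day, and leaving out 1 library at a time. The omission of both libraries that stand apart was added after their values were seen, and 25236 genes passed the filter then.

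The genes and the 17 lists (150 genes) were chosen with earlier results of these data known. Named besides the 8 genes are list genes that were called, the 3 most abundant of each pathway list, the 5 genes most like Alas2 and Hbb-bs, and genes of the lists missing in the 2 libraries, which were chosen after their values were seen. Some of the genes that these rules name are not reported here. Motifs and shared windows were read from RefSeq promoters (GRCm38.p6) and from transcripts of the same build. Apart from the placement of the Gata1 stretch inside its gene, no coordinates of the table were combined with them. Figures were drawn with matplotlib 3.10.9.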

Additional observations from a re-analysis of the deposited data

How the results depend on the processing

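No paired analysis was possible because the labels carry no replicate number. Of the 8 genes, the number called stayed at 0 under every alternative, except that it was 1 in CVAD against saline on day 8 and 1 in the CVAD response (Slc4a1 both times) when both libraries that stand apart were left out. The pathway lists had 0 genes called under every alternative.

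Values of single genes moved with that omission, and all but 1 of those below changed sign. Against values over all 30 libraries, the log2 fold change of CVAD against saline on day 8 became -1.17 for Alas2 (0.69), -0.74 for Hba-a1 (0.51), -1.02 for Hbb-bs (0.44) and -2.16 for Slc4a1 (-0.37). The mean of the 5 drugs against saline became -0.95 for Alas2 (0.91), -0.77 for Hbb-bs (0.70) and -1.10 for Slc4a1 (0.69). Slc4a1 became 1.25 in CVAD on day 2 (-0.39) and -3.41 in the CVAD response (0.02). For Slc4a1 in CVAD on day 8 the sign also turned with a pseudocount of 0.1 (0.60) and with quality weights (0.43). The cause was not tested.

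With 1 library left out at a time, Alas2, Hba-a1, Hbb-bs and the mean of the 5 drugs changed sign on day 8 without saline replicate 3. Slc4a1 did so in CVAD on day 8 without saline replicate 1 or 2 (0.59 and 0.46), in CVAD on day 2 without CVAD replicate 1 (1.25), and in the CVAD response without any of 4 libraries. Hba-a2 did so without CVAD day 8 replicate 2 (0.38) or saline day 8 replicate 1 (0.11). The values in CVAD against saline on day 8 ran between -1.17 and 1.72 for Alas2, -0.74 and 1.15 for Hba-a1, -2.63 and 0.38 for Hba-a2, -1.02 and 1.23 for Hbb-bs, and -2.16 and 0.59 for Slc4a1. For the mean of the 5 drugs they ran between -0.95 and 1.94 for Alas2, -0.77 and 1.48 for Hbb-bs, and -1.10 and 1.66 for Slc4a1. Slc4a1 ran between -1.23 and 1.25 in CVAD on day 2 and between -1.77 and 0.98 in the CVAD response.

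Over all genes, counts of called genes moved widely, for example between 0 and 98 for CVAD against saline on day 2 (11 with the chosen settings). The median of all genes was shifted by over 0.1 log2 units in the cyclophosphamide response alone (-0.11, and 0 with median-ratio scaling). Depth is unknown, so a TPM of 0 carries no upper limit here.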
